A study of Mus musculus with 2 samples.

Results

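The genes described here are 40 genes of the G2 phase and of mitosis, chosen by name and read from the rows of these symbols in the count matrices of both libraries. All 40 were found among 31053 genes, and all are protein-coding genes, spread over 16 chromosomes. They are described in cell types that were recognised by marker genes in the dental pulp, the living core of a tooth, taken from mice 12 days old. The Vegfr2 knockout library came from C57BL/6 mice with an endothelial knockout of Vegfr2, and the control library from C57BL/6 mice given only as control. Neither received a treatment, and from both the cells that excluded propidium iodide, a dye that enters dead cells, were sorted and put through 10x Genomics Chromium 3' v3.1. The driver of the knockout, the alleles that the controls carry and the number of animals in a library are not given in the sources used here. With 1 library per genotype nothing was tested, and each comparison below is between these libraries. The 95% intervals are exact and describe counting error alone.

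A dividing cell makes these transcripts late in its cycle. Cyclins A and B bind the kinase Cdk1 and drive entry into mitosis, the Aurora kinases, kinetochore proteins and kinesins build the spindle and attach the chromosomes, and the anaphase-promoting complex then ends mitosis by marking cyclins for destruction. In resting cells the promoters of many of these genes are kept silent by the DREAM complex, which docks at an element called the cell cycle genes homology region (CHR, letters TTTGAA), often near CCAAT boxes bound by NF-Y. In the growing tooth, vessels, nerves and mesenchyme of the pulp all still expand, and VEGFR2, encoded by Kdr, is known to pass on the signal of VEGF-A that makes endothelial cells divide.

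The promoters of these genes held both elements more often than promoters at large. The 4 printed here belong to genes on which the results below turn, a cyclin, its kinase, a chromosome enzyme and a trigger of anaphase. Each is the RefSeq sequence on GRCm38.p6 from 250 bases before to 50 bases after the start of the gene, 5′ to 3′ on the strand of the gene, with TTTGAA and CCAAT on either strand in capitals (TTCAAA and ATTGG are the same elements on the other strand). Within these 4, the matches of both elements do not overlap. The windows are chr9:70421505-70421804 for Ccnb2, chr10:69352863-69353162 for Cdk1, chr11:99024140-99024439 for Top2a and chr4:118437294-118437593 for Cdc20, all on the minus strand.
Ccnb2: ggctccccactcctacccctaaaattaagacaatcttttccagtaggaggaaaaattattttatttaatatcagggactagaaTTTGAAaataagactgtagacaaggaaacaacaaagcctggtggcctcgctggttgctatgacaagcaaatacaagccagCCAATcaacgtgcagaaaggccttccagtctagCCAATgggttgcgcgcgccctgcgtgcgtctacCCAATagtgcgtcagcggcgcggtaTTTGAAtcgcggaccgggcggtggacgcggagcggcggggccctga
Cdk1: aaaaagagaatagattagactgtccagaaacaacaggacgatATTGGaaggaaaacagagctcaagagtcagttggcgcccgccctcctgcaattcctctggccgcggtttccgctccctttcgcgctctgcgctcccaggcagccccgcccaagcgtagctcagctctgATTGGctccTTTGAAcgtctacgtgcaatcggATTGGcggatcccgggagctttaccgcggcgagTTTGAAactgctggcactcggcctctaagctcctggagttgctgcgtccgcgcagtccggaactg
Top2a: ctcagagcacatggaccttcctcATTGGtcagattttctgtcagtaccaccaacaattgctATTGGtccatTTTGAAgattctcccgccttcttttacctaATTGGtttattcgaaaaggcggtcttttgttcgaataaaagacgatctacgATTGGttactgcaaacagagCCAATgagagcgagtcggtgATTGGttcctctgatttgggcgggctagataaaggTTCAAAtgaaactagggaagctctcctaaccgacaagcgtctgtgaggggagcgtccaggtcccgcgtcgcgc
Cdc20: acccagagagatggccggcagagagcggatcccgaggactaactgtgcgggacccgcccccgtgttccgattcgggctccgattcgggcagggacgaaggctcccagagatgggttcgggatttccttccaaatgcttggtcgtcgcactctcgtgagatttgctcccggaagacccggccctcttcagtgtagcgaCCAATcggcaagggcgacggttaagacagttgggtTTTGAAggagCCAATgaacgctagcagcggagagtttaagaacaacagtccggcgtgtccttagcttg
A promoter was found for 35 of the 40 genes, all but Ccna2, Tpx2, Pbk, Aurkb and Smc4. TTTGAA stood in 26 of the 35 genes (74.3%), and in 20.2% of 27025 genes with a window of this length. CCAAT stood in 26 of the 35 (74.3%) and in 41.1% of all genes. Both stood in 21 of the 35, and in 7.97% of all genes. Ccnb2 has 2 matches of TTTGAA and 3 of CCAAT, Cdk1 has 2 and 3, Top2a has 2 and 6, and Cdc20 has 1 and 2. A match is a run of letters in this window and not a shown binding site.

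The Vegfr2 knockout matrix held 2563 barcodes and 17277162 UMIs (unique molecular identifiers, each standing for 1 captured transcript), and the control matrix 3487 barcodes and 35918862 UMIs. Filters left 1668 Vegfr2 knockout cells with a median of 8273 UMIs and 2311 control cells with a median of 12203 UMIs. A cell joined a class when at least 3 markers of that class were detected and at least 2 more than of any other class. This placed 1444 knockout cells (86.6%) and 2092 control cells (90.5%), of which 144 in each library lay exactly at a limit. The classes are endothelial-like, mural-like and so on, and are called by the shorter names below. Their own markers were high in both libraries, at 8305 CPM (UMIs per 1000000 UMIs of the class) in knockout endothelial cells and 8183 CPM in those of the control. Mural markers in endothelial cells stood at 322 CPM in the knockout and 82.0 CPM in the control, and neutrophil markers in macrophages or monocytes at 751 CPM in the knockout and 105 CPM in the control, and their part in the results was not tested. Kdr in endothelial cells was at 649.7 CPM in the knockout and 1054 CPM in the control (ratio 0.616, interval 0.569 to 0.668), but 3' tags need not cover a deleted part, so this value checks nothing about the deletion. Cells with Y-linked UMIs and none of Xist were called Y-positive and the reverse Xist-positive. Of the cells with either call, 34.0% in the knockout and 16.1% in the control were Y-positive, so the libraries mix the sexes unequally. They shared 3 barcodes, 2 of them kept.

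The 40 genes were seen together in the same cells. Hmmr, a spindle protein, had 99.6% of its UMIs in cells that held at least 5 UMIs of the other 39 genes. The shares were 98.3% for Nuf2 of the outer kinetochore, 98.1% for the spindle protein Nusap1, 96.3% for Top2a, the topoisomerase that untangles sister chromosomes, and 95.8% for Mki67, which coats mitotic chromosomes and is the usual stain for cycling cells. Smc4, a subunit of the condensin that folds chromosomes, and Cks2, a small partner of Cdk1, were broader, with 61.1% and 72.9% of their UMIs in such cells. Smc4 was seen in 1484 and Cks2 in 913 of the 3979 kept cells, Top2a in 510 and Hmmr in 172. Smc4 and Cks2 thus had a larger share of their UMIs in cells with few mitotic UMIs than the other genes had. The UMIs of most other genes came from a small number of cells. Outside the set, the genes whose level followed the sum of the 40 most closely over the 3979 cells were Kif15 (Pearson r = 0.663), a spindle motor, Pclaf (0.658), which binds the replication clamp PCNA, Hmgb2 (0.618), a chromatin protein, and Spc24 (0.607) of the kinetochore. Among those that followed were Kif4, Melk, Sgo2a, Kif22, Neil3, Lockd and Spc25, down to 0.573. The cells share 2 libraries and differ in depth, and these values describe likeness only.

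Over all kept cells the 40 genes had 14776 UMIs in the Vegfr2 knockout and 47796 in the control. The level was 995 CPM in the knockout and 1517 CPM in the control, a ratio of knockout over control of 0.656 (interval 0.644 to 0.668). All 40 ratios were below 1, from Hmmr (log2 ratio -1.23) to Cks2 (-0.08), and 24 of 40 genes were at least 1.5-fold lower, against 10.7% of the 15487 genes with at least 20 UMIs. None was at least 1.5-fold higher, against 10.5%. With equal weight for each cell 37 ratios were below 1, against 8404 of the 15487 genes. Under this weight 12 genes were at least 1.5-fold lower, against 10.3% of all genes. The classes differed widely from this pooled value. In endothelial cells the sum was at 319.6 CPM in the knockout and 1541 CPM in the control, in mural cells (pericytes and smooth muscle) at 299 CPM in the knockout and 1209 CPM in the control, and in mesenchyme at 219.7 CPM in the knockout and 1103 CPM in the control. In glia it was at 1287 CPM in the knockout and 2017 CPM in the control and in macrophages or monocytes at 971 CPM in the knockout and 1124 CPM in the control. B cells stood on the other side, at 3627 CPM in the knockout and 2621 CPM in the control, and so did neutrophils, at 1502 CPM in the knockout and 1086 CPM in the control. When each cell counted the same whatever its depth, the ratios were 0.809 in endothelial cells, 0.189 in mural cells, 0.520 in mesenchyme, 0.583 in glia and 0.723 in macrophages or monocytes. The order of the classes thus changed with the weighting, and the endothelial value moved the farthest. In the 224 knockout and 219 control cells that joined no class the ratio was 0.759 (interval 0.730 to 0.789), with 13 of 40 genes at least 1.5-fold lower (20.1% of all genes measured there) and none higher (7.78%). With equal weight these cells showed no such shift: the median log2 ratio was -0.01, with 6 genes at least 1.5-fold lower (24.2%) and 4 higher (11.5%).

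**Figure D1:**
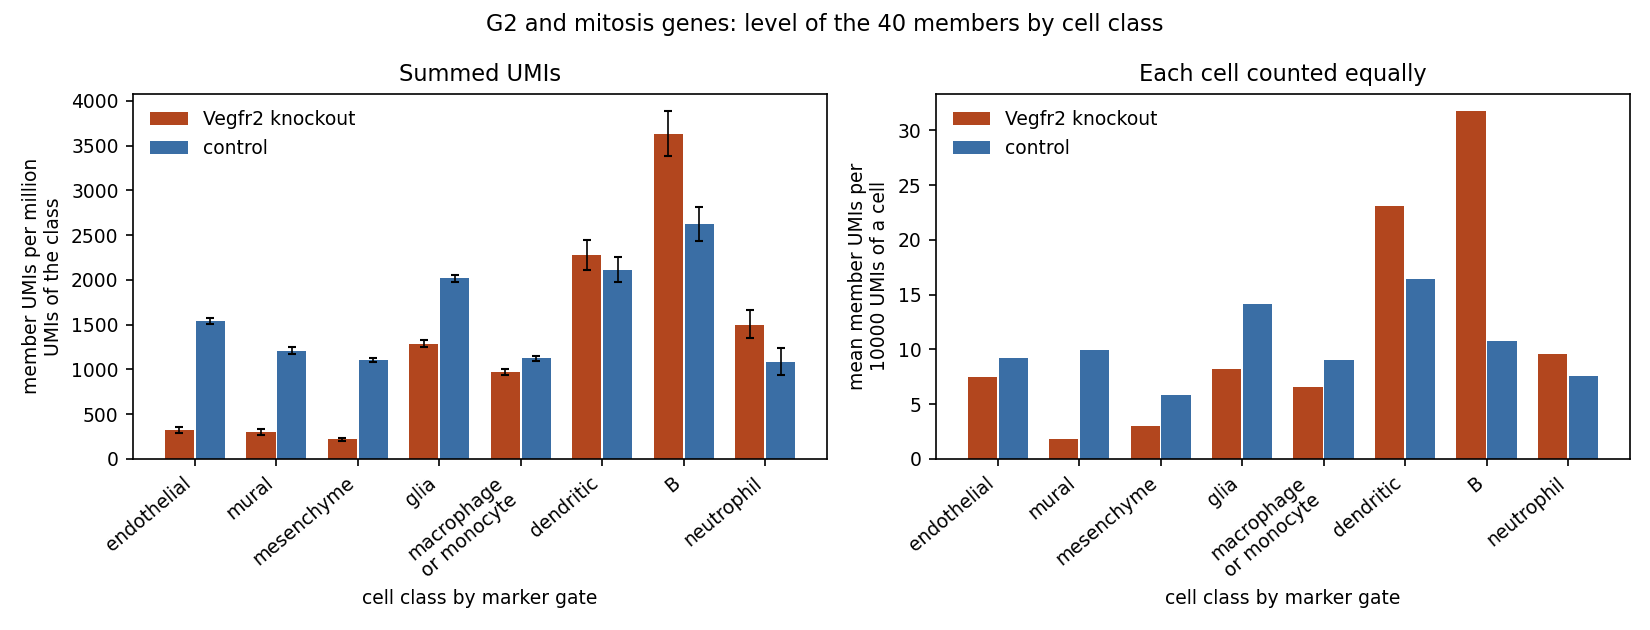
Level of the 40 genes in each cell class, Vegfr2 knockout left of control: summed UMIs per 1000000 UMIs of the class with exact 95% intervals (left panel) and mean UMIs per 10000 UMIs of a cell (right panel). In the left panel the endothelial, mural and mesenchymal bars are low in the knockout and high in the control; in the right panel the endothelial bars, at 7.49 in the knockout and 9.26 in the control, come close.

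Endothelial cells line the vessels and are the cells in which Vegfr2 was knocked out. Their sum was 337 UMIs in 141 Vegfr2 knockout cells and 8102 UMIs in 406 control cells, a ratio of 0.207 (interval 0.185 to 0.231). By summed UMIs all 39 genes with at least 20 UMIs were at least 1.5-fold lower (15.1% of the 10898 genes measured). Their median log2 ratio was -2.49, beside -0.02 over all genes. Among the cyclins, Ccna2, which acts from S phase to early mitosis, had 3 UMIs in the knockout and 193 in the control (ratio 0.0775). Ccnb2 had 7 UMIs in the knockout and 196 in the control (ratio 0.178) and Ccnb1 3 UMIs in the knockout and 78 in the control (ratio 0.192), and both act in mitosis itself. Cdk1, the kinase that all of them activate, had 17 UMIs in the knockout and 289 in the control (16.1 CPM in the knockout and 55.0 CPM in the control, ratio 0.293, interval 0.168 to 0.478). Cks2 had a higher ratio than these, with 25.6 CPM in the knockout and 75.7 CPM in the control (0.338, interval 0.220 to 0.50). Every cyclin was thus low in the knockout library by summed UMIs, on 3 to 7 UMIs each.

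The other roles were lower in endothelial cells too. Aurora kinases and the passenger complex, which correct faulty chromosome attachment, had a summed ratio of 0.172 (interval 0.116 to 0.247). Aurka, the kinase of the spindle poles, was without a UMI in the knockout and had 62 in the control, so that it was at least 4.15-fold lower (3 counts over the class stand in for 0). Birc5 (survivin) of the passenger complex was at 15.2 CPM in the knockout and 58.8 CPM in the control (ratio 0.258, interval 0.146 to 0.426). Kinetochore and checkpoint genes had a ratio of 0.142 (interval 0.0974 to 0.201). Among them Cenpf, a large protein of the outer kinetochore, was at 11.4 CPM in the knockout and 89.0 CPM in the control (ratio 0.128, interval 0.0656 to 0.225), and Ndc80, which grips microtubules, had no UMI in the knockout and 80 in the control, at least 5.35-fold lower. The spindle group was lowest of the 7 roles, at 0.125 (interval 0.0834 to 0.181), and in it Ckap2l had 1 UMI in the knockout and 121 in the control (log2 ratio -4.60), the lowest ratio of a gene with a UMI in the knockout.

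The route of the anaphase-promoting complex had a ratio of 0.251 (interval 0.166 to 0.364) in endothelial cells. Ube2c, which hands ubiquitin to that complex, was at 13.3 CPM in the knockout and 58.6 CPM in the control (ratio 0.227), and its activator Cdc20 at 12.3 CPM in the knockout and 32.2 CPM in the control (ratio 0.383, interval 0.20 to 0.674). Midzone and cytokinesis genes had a ratio of 0.245 (interval 0.181 to 0.326). Prc1, which bundles midzone microtubules, was at 13.3 CPM in the knockout and 66.6 CPM in the control (ratio 0.199), and Ect2, which switches on the cleavage furrow, had 5 UMIs in the knockout and 52 in the control (ratio 0.479, interval 0.149 to 1.19). Chromosome structure genes had a ratio of 0.256 (interval 0.208 to 0.311), with single genes far apart. Ncapg, a condensin subunit, had no UMI in the knockout and 98 in the control and was at least 6.55-fold lower, whereas Smc4 of condensin was at 67.3 CPM in the knockout and 114 CPM in the control (ratio 0.593, interval 0.457 to 0.759), the highest ratio of the set. Gtse1 had no UMI in the knockout and 19 in the control, under the limit of 20.

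The endothelial values rested on a few cells in each library, and these cells differed in depth. At least 10 UMIs of the 40 genes were found in 7 of 141 knockout cells and 43 of 406 control cells, and 1 knockout and 18 control cells lay close to that limit, at 8 to 12 UMIs. The cells with at least 10 held 57.6% of the mitotic UMIs in the knockout and 91.7% in the control. Their median depth was 3137 UMIs in the knockout and 24506 in the control. In all other endothelial cells the sum was at 148 CPM in the knockout and 165 CPM in the control. The knockout cell with the most held 52 mitotic UMIs among 1877, from 28 of the 40 genes, which is 277 per 10000. The control cell with the most held 908 among 48954, from 39 genes, or 185 per 10000. Relative to its own depth the knockout cell was no poorer in mitotic UMIs, but it was shallow.

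Cells with such a level were picked out by at least 50 mitotic UMIs per 10000 and at least 10 in all, limits chosen after the values were seen. They made up 5 of 141 Vegfr2 knockout cells (3.55%, interval 1.16 to 8.08%) and 17 of 406 control cells (4.19%, interval 2.46 to 6.62%) of the endothelial class, with Clopper-Pearson intervals that overlap widely. All 5 knockout cells had between 1364 and 3291 UMIs, whereas 16 of the 17 control cells had at least 4000. Among cells of at least 4000 UMIs, 0 of 91 knockout cells qualified, which allows a share of up to 3.30% (3 cells of the total, not a Clopper-Pearson bound), against 16 of 351 control cells (4.56%). The knockout cells carried a median of 8 of the 12 endothelial markers and the control cells 11, beside 10 over the whole class in the knockout and 11 in the control. With equal weight for each cell, they made up 76.2% of the knockout level and 70.1% of the control level.

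**Figure D2:**
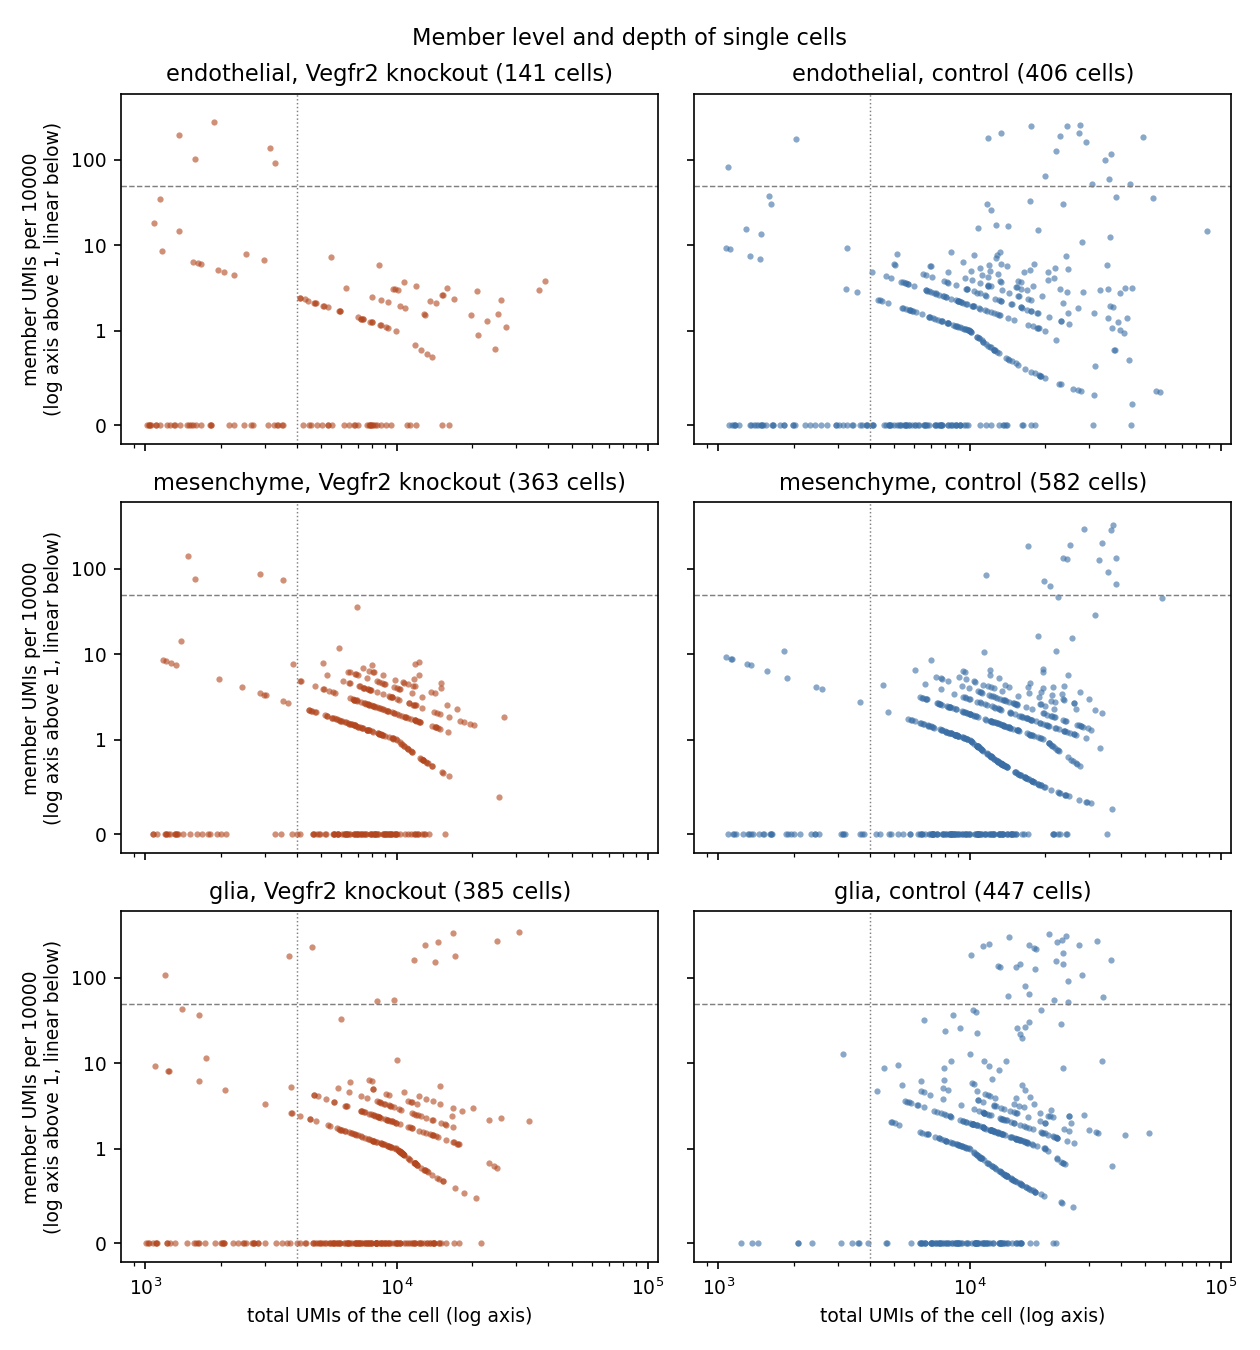
Each point is a cell of the endothelial, mesenchymal or glial class, Vegfr2 knockout in the left column and control in the right, placed by its total UMIs (log axis) and its UMIs of the 40 genes per 10000 (log axis above 1, linear below); the dashed line marks 50 per 10000 and the dotted line 4000 UMIs. Of the endothelial cells over the dashed line with at least 10 such UMIs, all 5 of the knockout lie left of the dotted line and 16 of 17 of the control right of it; of the mesenchymal cells, all 4 of the knockout lie left and all 15 of the control right.

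Under equal weight the endothelial ratios no longer all lay below 1. The median log2 ratio was -0.33, with 25 of 39 genes below 1, beside 5482 of 10898 over all genes measured. Of the 39, 16 were at least 1.5-fold lower (18% of all genes under this weight) and 4 at least 1.5-fold higher (14.9%). Those 4 were Cdc20 (2.14), Nuf2 (1.65), Ccnb2 (1.55) and Ect2 (1.51), on 13, 3, 7 and 5 UMIs in the knockout. Of the 13 UMIs of Cdc20, 5 lay in the cell of 1877 UMIs. Birc5 (1.39), Ube2c (1.10) and Prc1 (1.05) were above 1, against 0.258, 0.227 and 0.199 by summed UMIs. Top2a (0.444), Mki67 (0.461), Ccna2 (0.315), Nusap1 (0.439) and Ckap2l (0.197) stayed below 1 under both. The summed ratio of the set was 0.398 after thinning each cell to 2000 UMIs, 0.326 under a looser gate and 0.102 at a mitochondrial limit of 5%. It was 0.0927 in Y-positive cells (42 knockout and 70 control). These values share a direction and differ in size, and what made some knockout cells shallow was not tested.

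Mural cells wrap the vessels and were low under both weightings. The sum was 362 UMIs in 154 Vegfr2 knockout cells and 3733 UMIs in 240 control cells (ratio 0.247, interval 0.221 to 0.275). All 39 genes measured were at least 1.5-fold lower (11.9% of 10458 genes), with a median log2 ratio of -2.28 beside 0.01 over all genes. Mki67 was at 6.60 CPM in the knockout and 91.3 CPM in the control (ratio 0.0723, interval 0.0309 to 0.144), Top2a at 27.2 CPM in the knockout and 118 CPM in the control (ratio 0.232) and Cenpf at 3.30 CPM in the knockout and 70.3 CPM in the control (ratio 0.0470, interval 0.0127 to 0.122). In the knockout these 3 genes came mostly from the same cell, which held 75.0% of the Mki67 UMIs, 87.9% of those of Top2a and all 4 of Cenpf. The knockout cell with the most mitotic UMIs held 212 of the 362 mitotic UMIs (58.6%) at a depth of 25155 UMIs, and the next held 6; without the top cell of each library the ratio was 0.125. At least 10 mitotic UMIs were found in 1 knockout cell and 19 control cells, and elsewhere the sum was at 126 CPM in the knockout and 125 CPM in the control. With equal weight the median log2 ratio was -2.94 and 38 of 39 genes were at least 1.5-fold lower (13.8% of all genes). Smc4 (0.574), Cdca3 (0.560), which helps to clear the mitotic brake Wee1, and Birc5 (0.515) had the highest ratios. Mesenchymal markers in mural cells were at 2894 CPM in the knockout and 1883 CPM in the control. Of the mural cells with a sex, 45.5% in the knockout and 10.1% in the control were Y-positive, and the part of either in the result was not tested.

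Mesenchymal cells, the fibroblast-like cells of the pulp, had 662 UMIs of the 40 genes in 363 Vegfr2 knockout cells and 8705 in 582 control cells (ratio 0.199, interval 0.184 to 0.216). All 39 genes measured were at least 1.5-fold lower (13.3% of 12747 genes), with a median log2 ratio of -2.73 beside -0.05 over all genes. The class was not made up alike in both libraries. By the clusters made without cell cycle genes, 232 of its 363 knockout cells but 26 of its 582 control cells lay in cluster 3, while clusters 0, 1 and 4 held 65, 30 and 27 knockout cells and 284, 123 and 132 control cells. Within cluster 3 the ratio was 1.32 (interval 0.912 to 1.98), and within cluster 4, which held 7476 of the 8705 control UMIs, it was 0.212 (interval 0.173 to 0.258). It was 0.782 (interval 0.573 to 1.05) in cluster 0 and 0.537 (interval 0.357 to 0.782) in cluster 1, so the class ratio is lower than that of each of these clusters. Kinetochore and checkpoint genes had 37 UMIs in the knockout and 1325 in the control (ratio 0.0731, interval 0.0513 to 0.101), the lowest of the 7 roles in any of the 5 large classes. In it the checkpoint kinases Bub1 and Ttk had no UMI in the knockout and 82 of Bub1 and 59 of Ttk in the control, at least 10.4-fold and 7.51-fold lower. Cenpf was at 5.97 CPM in the knockout and 84.0 CPM in the control (ratio 0.0711, interval 0.0419 to 0.113), and the kinetochore motor Cenpe at 1.66 CPM in the knockout and 27.7 CPM in the control. Mki67 was at 3.65 CPM in the knockout and 69.2 CPM in the control (ratio 0.0528, interval 0.0262 to 0.0952). Hmmr had 3 UMIs in the knockout and 198 in the control (ratio 0.0397, interval 0.00811 to 0.118), the lowest ratio with a UMI in the knockout. Top2a was broader, with UMIs in 40 knockout and 62 control cells, and stood at 20.2 CPM in the knockout and 111 CPM in the control (ratio 0.182). Cks2 (28.9 CPM in the knockout and 60.9 CPM in the control, ratio 0.474) and Smc4 (42.8 CPM in the knockout and 69.2 CPM in the control, ratio 0.619) were the highest.

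The knockout mesenchyme held few cells with many mitotic UMIs. Its 6 cells with at least 10 held 18.0% of these UMIs, and the 27 such control cells held 88.9%. The knockout cell with the most had 26 mitotic UMIs among 3540, from 17 genes, and the control cell with the most had 1209 among 37220, from all 40. In the other cells the sum was at 182 CPM in the knockout and 135 CPM in the control, which is the opposite order. At least 50 mitotic UMIs per 10000 were found in 4 of 363 Vegfr2 knockout cells (1.10%, interval 0.301 to 2.80%) and 15 of 582 control cells (2.58%, interval 1.45 to 4.22%). Among cells of at least 4000 UMIs the numbers were 0 of 321 in the knockout, which allows up to 0.935% by the same rule of 3 cells, and 15 of 539 in the control (2.78%). The 4 knockout cells carried a median of 6 of the 12 mesenchymal markers, with a lowest count of 3, and the 15 control cells a median of 11. Over the whole class the median was 9 in the knockout and 10 in the control. With equal weight these cells made up 34.6% of the knockout level and 70.8% of the control level. With equal weight for each cell the median log2 ratio was -1.17 and 36 of 39 genes were below 1, beside 6933 of 12747 over all genes measured. Of the 39, 27 were at least 1.5-fold lower (12.4% of all genes), while Ccnb2 (1.60) and Ncapg (1.64) were at least 1.5-fold higher (11.4%). These 2 had 15 and 6 UMIs in the knockout. The summed ratio was 0.386 after thinning to 2000 UMIs and 0.415 in cells of at most 30000 UMIs.

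Glia, in the pulp mostly Schwann cells of its nerves, held the most mitotic UMIs of any class, 4482 in 385 Vegfr2 knockout cells and 12049 in 447 control cells (ratio 0.638, interval 0.616 to 0.660). The median log2 ratio was -0.62 beside 0.01 over all genes, and 23 of 40 genes were at least 1.5-fold lower (9.62% of 11536 genes) and none higher (9.99%). The roles were not alike. Chromosome structure genes were lowest, at 254 CPM in the knockout and 578 CPM in the control (ratio 0.439, interval 0.407 to 0.473), with Top2a at 88.7 CPM in the knockout and 234 CPM in the control (ratio 0.379, interval 0.334 to 0.429), Mki67 at 88.7 CPM in the knockout and 205 CPM in the control (ratio 0.433) and Ncapg at 7.47 CPM in the knockout and 17.7 CPM in the control (ratio 0.421). The cyclins and their kinase had a ratio of 0.775 (interval 0.70 to 0.857), and the anaphase-promoting route of 0.824 (interval 0.734 to 0.923). Within the roles, 5 genes stood above 1. Cenpf was at 139 CPM in the knockout and 124 CPM in the control (ratio 1.12, interval 0.994 to 1.25), and Aspm, which focuses spindle poles, at 41.1 CPM in the knockout and 34.3 CPM in the control (ratio 1.20, interval 0.960 to 1.49). Ccnb2 was at 26.7 CPM in the knockout and 23.3 CPM in the control (ratio 1.15, interval 0.873 to 1.5), Cdc20 at 42.8 CPM in the knockout and 39.3 CPM in the control (ratio 1.09, interval 0.880 to 1.34) and Kif2c, which takes microtubules apart at kinetochores, at 10.6 CPM in the knockout and 8.20 CPM in the control (ratio 1.30, interval 0.822 to 2.03). Each of these 5 intervals contains 1, and 1 knockout cell held 39.3% of the Cenpf and 40.6% of the Aspm UMIs. Ndc80 (5.74 CPM in the knockout and 17.6 CPM in the control, ratio 0.327), Bub1 (ratio 0.337) and Aurkb (ratio 0.350), the kinase of the passenger complex, were the lowest.

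Fewer of the knockout glia held many mitotic UMIs. At least 1 was found in 227 of 385 knockout and 342 of 447 control cells. At least 10 were found in 15 of 385 knockout cells (3.90%) and 51 of 447 control cells (11.4%), with 2 knockout and 8 control cells at 8 to 12. The cells with at least 10 had a median depth of 11723 UMIs in the knockout and 16637 in the control, and a limit set in UMIs asks for a higher level in a shallower cell. Within them the sum was at 21659 CPM in the knockout and 12347 CPM in the control, while genes of DNA replication were at 2064 CPM in the knockout and 3869 CPM in the control. In the remaining glia the mitotic sum was at 131 CPM in the knockout and 140.4 CPM in the control. At least 50 mitotic UMIs per 10000 were found in 13 of 385 Vegfr2 knockout cells (3.38%, interval 1.81 to 5.70%) and 30 of 447 control cells (6.71%, interval 4.57 to 9.44%). A knockout cell with 1075 mitotic UMIs among 30777 held 24.0% of the class sum. By the clusters made without cell cycle genes, 4007 of the knockout and 11097 of the control UMIs lay in cluster 21. It held 12 knockout cells (3.12% of the class) and 41 control cells (9.17%), with a ratio of 1.64 (interval 1.59 to 1.70) within it. Of the other glia the most lay in cluster 9 in the knockout (185 cells, 129 in the control) and in cluster 5 in the control (134 in the knockout, 177 in the control). The ratio was 0.743 (interval 0.625 to 0.880) in cluster 5, 0.977 (interval 0.810 to 1.18) in cluster 9 and 0.962 (interval 0.701 to 1.30) in cluster 19. The class ratio is thus lower than that of each of these clusters. Without the 5 cells with the most in each library the class ratio was 0.299. With equal weight 25 of 40 genes were at least 1.5-fold lower (9.6% of all genes) and none higher (11%). The direction also changed with the cells that entered. At a mitochondrial limit of 5% the ratio was 1.07. In Xist-positive cells (177 knockout and 318 control) it was 1.14, whereas in Y-positive cells (129 knockout and 75 control) it was 0.312. Of the glia with a sex, 42.2% in the knockout and 19.1% in the control were Y-positive.

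Macrophages or monocytes, the phagocytes of the pulp, came closest to the control among the 5 large classes by summed UMIs, though not with equal weight, where the ratio of 0.723 lay below the endothelial one of 0.809. The sum was 2717 UMIs in 288 Vegfr2 knockout cells and 5767 in 330 control cells (ratio 0.864, interval 0.825 to 0.904). The median log2 ratio was -0.28 beside -0.08 over all genes, and 10 of 40 genes were at least 1.5-fold lower (12.5% of 10475 genes) and none higher (9.56%). With equal weight 21 were at least 1.5-fold lower (12.2%) and none higher (12.3%). Ube2c had the highest ratio (1.48, interval 1.22 to 1.78), at 72.2 CPM in the knockout and 48.9 CPM in the control, and a ratio of 1.03 with equal weight for each cell. Cdk1 was at 31.1 CPM in the knockout and 24.4 CPM in the control (ratio 1.28, interval 0.959 to 1.69) and Cks2 at 97.2 CPM in the knockout and 85.7 CPM in the control (ratio 1.13, interval 0.971 to 1.32), with intervals that contain 1. Mki67 was at 72.2 CPM in the knockout and 106 CPM in the control (ratio 0.682, interval 0.578 to 0.803) and Top2a at 96.1 CPM in the knockout and 114 CPM in the control (ratio 0.840). Nuf2 was lowest, with 10 UMIs in the knockout and 51 in the control (ratio 0.360, interval 0.163 to 0.716), followed by Bub1 (0.438) and Hmmr (0.488). The ratio of the sum was 1.52 when cells were named by clusters made without cell cycle genes. It was 1.16 in Xist-positive cells (146 knockout and 250 control) and 0.165 in Y-positive cells (69 knockout and 50 control). So no direction is read for this class. Under those clusters Nuf2 (1.47), Bub1 (1.67) and Hmmr (1.14) stood above 1. That naming left 2174 knockout and 2262 control UMIs, and clusters 12 and 13 were named dendritic. Of the UMIs of the gated class, cluster 12 held 1142 in the knockout and 2867 in the control, and cluster 13 held 405 and 1197. The ratio was 0.531 within cluster 12, 1.42 in cluster 13, 1.07 in cluster 2, 2.45 in cluster 6 and 1.60 in cluster 15.

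Among the small immune classes, B cells had 792 UMIs of the 40 genes in 32 Vegfr2 knockout cells and 740 in 33 control cells (ratio 1.38, interval 1.25 to 1.53). Single cells held 38.8% of these UMIs in the knockout and 67.8% in the control, and 9 knockout and 3 control cells held at least 10. Neutrophils had 367 UMIs in 40 knockout cells and 208 in 27 control cells (ratio 1.38, interval 1.16 to 1.65), with 58.6% in 1 knockout cell and 64.4% in 1 control cell. By the clusters made without cell cycle genes, 225 of the 367 knockout UMIs lay in 4 cells of cluster 6, named macrophage or monocyte. No control neutrophil lay there. Within cluster 17, with 34 knockout and 27 control neutrophils, the ratio was 0.722 (interval 0.579 to 0.899), the opposite direction. In dendritic cells the ratio was 1.08 (interval 0.976 to 1.19), with 26 knockout and 23 control cells. T or NK cells lay on the other side of 1, at 0.347 (interval 0.292 to 0.413), with 15 knockout and 4 control cells, and 288 of the 294 control UMIs in 1 cell. These classes have under 50 cells in each library and are given as values only.

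Set side by side, the roles differed in which class was lowest. Ratios by summed UMIs are given here in the order endothelial, mural, mesenchymal, glial and macrophage or monocyte cells. The cyclins and their kinase had summed ratios of 0.246, 0.252, 0.292, 0.775 and 1.08. Within them Ccnb1 had 0.192, 0.131, 0.135, 0.948 and 0.790, and Ccnb2 0.178, 0.0760, 0.309, 1.15 and 0.860. By summed UMIs both cyclins B thus came near 1 in glia and stayed low in the 3 classes of vessel and stroma. With equal weight for each cell Ccnb2 was at least 1.5-fold higher in endothelial cells and in mesenchyme, on 7 and 15 UMIs in the knockout. In mural cells it was at least 1.5-fold lower, on 2 UMIs in the knockout. The anaphase-promoting route had 0.251, 0.225, 0.178, 0.824 and 1.17, and the passenger group 0.172, 0.314, 0.136, 0.599 and 0.913, in which Tpx2, which activates Aurka on the spindle, had 0.108, 0.230, 0.194, 0.647 and 0.642. Passenger genes were thus lowest in mesenchyme and highest in macrophages or monocytes. Kinetochore genes had 0.142, 0.147, 0.0731, 0.791 and 0.695. Knl1, the scaffold on which the checkpoint is built, had 0.197, 0.234, 0.0647, 0.552 and 0.811, and Cenpe 0.177, 0.295, 0.0598, 0.692 and 0.611. Like the group as a whole, both were lowest in mesenchyme.

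Spindle genes had ratios of 0.125, 0.206, 0.178, 0.713 and 0.737 in the same order of classes. Kif11, the motor that pushes spindle poles apart, had 0.211, 0.186, 0.132, 0.543 and 0.818, and Tacc3, which ties together the microtubules of the spindle, 0.223, 0.418, 0.204, 0.831 and 0.575. In both the 3 classes of vessel and stroma lay below glia. Midzone and cytokinesis genes had 0.245, 0.263, 0.227, 0.675 and 0.789, with Kif23 of centralspindlin at 0.283, 0.226, 0.227, 0.765 and 0.652 and its partner Racgap1 at 0.283, 0.272, 0.157, 0.792 and 0.956. Anln, which builds the contractile ring, had 0.281, 0.207, 0.112, 0.813 and 0.745. All 3 were lowest in mesenchyme or in mural cells. Chromosome structure genes had 0.256, 0.287, 0.268, 0.439 and 0.804, with Top2a at 0.0903, 0.232, 0.182, 0.379 and 0.840 and Mki67 at 0.168, 0.0723, 0.0528, 0.433 and 0.682. Smc4 had 0.593, 0.574, 0.619, 0.569 and 0.886, the highest ratio of the measured genes in each of the first 3 classes. Pbk, a mitotic kinase in none of these roles, had 0.125, 0.305, 0.150, 0.412 and 0.695. All classes rest on the same pair of libraries, and differences between roles and classes were not tested.

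**Figure D3:**
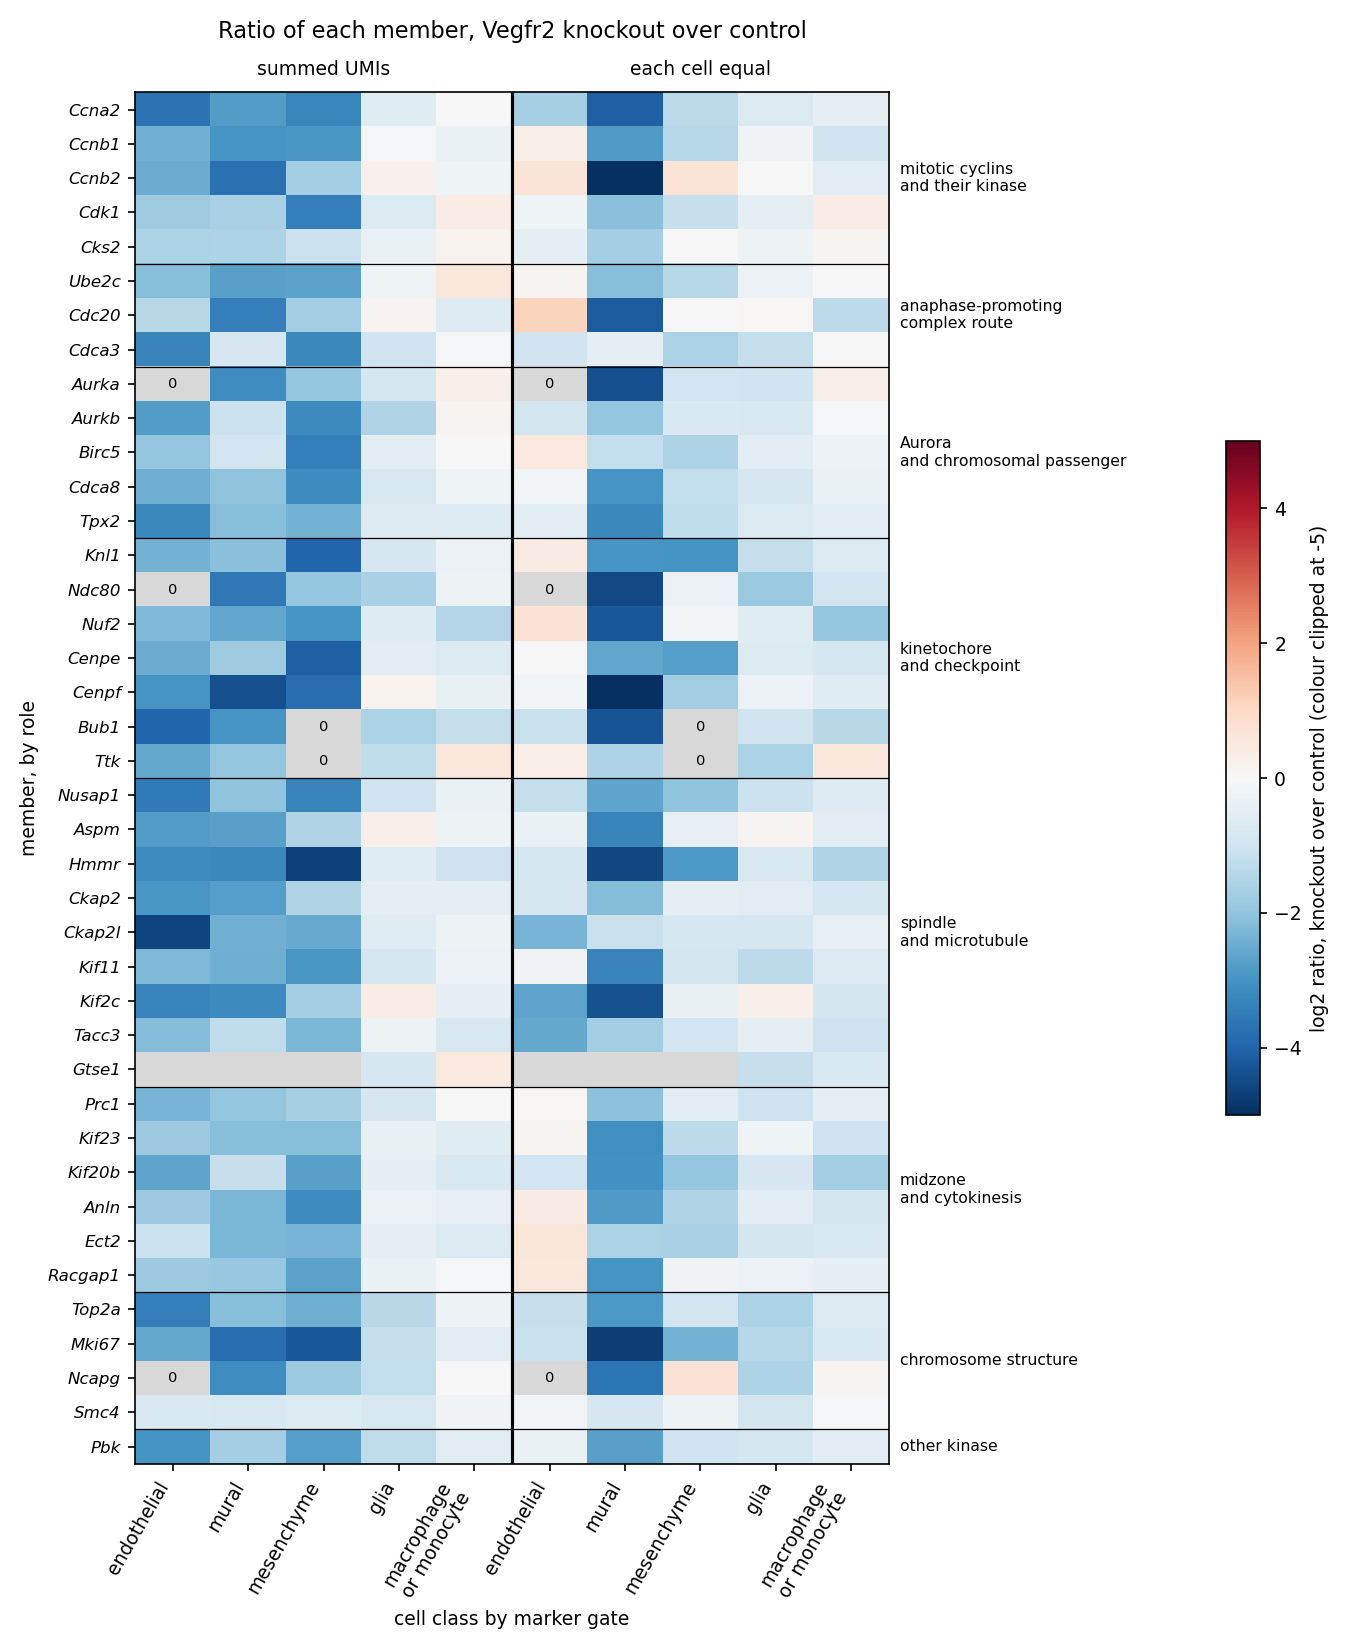
The log2 ratio, Vegfr2 knockout over control, of each of the 40 genes by role (down) in 5 cell classes, by summed UMIs (left block) and with each cell counted equally (right block). Blue is lower and red higher in the knockout, 0 marks genes without a UMI in the knockout, and plain grey genes with under 20 UMIs; the endothelial, mural and mesenchymal columns of the left block are blue throughout, and Smc4 is palest in them at -0.75, -0.80 and -0.69.

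**Figure D4:**
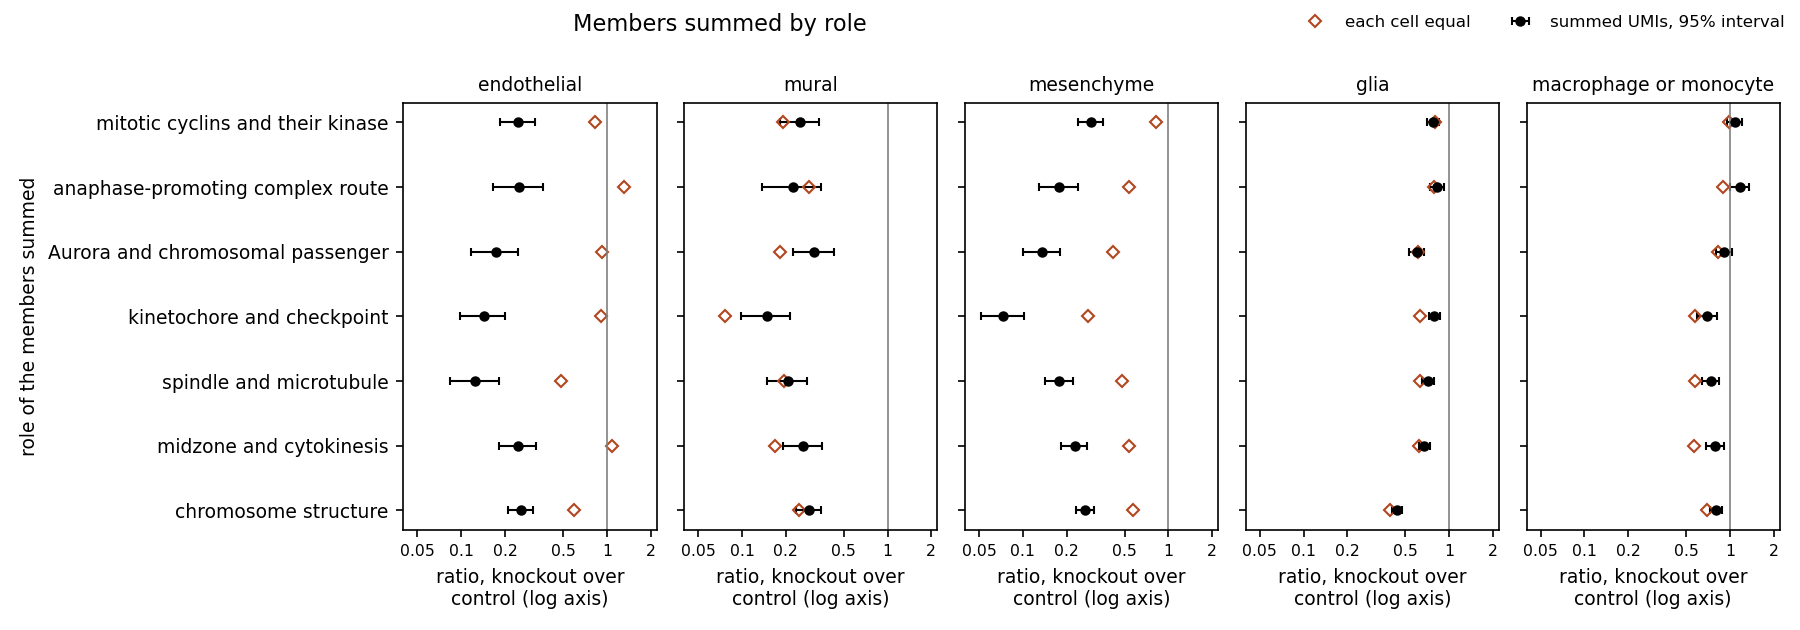
Ratio of the genes summed by role, Vegfr2 knockout over control, on a log axis in 5 cell classes: filled points with exact 95% intervals for summed UMIs, open diamonds for equal weight of each cell. In endothelial cells the points lie between 0.125 and 0.256 and the diamonds between 0.483 and 1.32, while in glia points and diamonds lie close together.

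To set the libraries at 1 depth, cells were thinned to 2000 UMIs each, and 138 Vegfr2 knockout and 99 control cells with fewer were set aside. At least 5 mitotic UMIs were then found in 80 of 1530 knockout cells (5.23%) and 146 of 2212 control cells (6.60%), a ratio of 0.792 (interval 0.595 to 1.05). Unthinned, the shares were 14.9% in the knockout and 21.1% in the control. In glia the thinned share was 3.62% in the knockout and 8.33% in the control (ratio 0.435, interval 0.212 to 0.836), and in mesenchyme 0.599% in the knockout and 3.24% in the control (ratio 0.185, interval 0.0208 to 0.771). In mural cells it was 0.704% in the knockout and 5.08% in the control (ratio 0.138, interval 0.00324 to 0.936). These values come from 1 draw of the UMIs. Over 20 further draws the ratio ran from 0.345 to 0.412 in glia, below the value of the first draw, and from 0.119 to 0.138 in mural cells, with an interval below 1 in every draw. In mesenchyme it ran from 0.262 to 0.350, above the value of the first draw, and the upper end of its interval ran from 0.891 to 1.05, below 1 in 13 of 20 draws. In endothelial cells it was 1.85% (2 of 108) in the knockout and 6.43% (24 of 373) in the control, with a ratio of 0.288 whose interval, 0.0330 to 1.16, contains 1. Thinning left out 33 knockout and 33 control endothelial cells, among them 3 of the 5 knockout and 0 of the 17 control cells with at least 50 mitotic UMIs per 10000. Over the 20 draws the endothelial ratio ran from 0.266 to 0.345, and the unthinned shares were 7.80% in the knockout and 20.7% in the control. In macrophages or monocytes the thinned share was 5.02% in the knockout and 7.03% in the control (ratio 0.713, interval 0.339 to 1.45). No class can be taken to lack dividing cells, so free RNA had no class to be read from. In cells with under 10 mitotic UMIs the sum stood between 126 and 214 CPM in the knockout and between 125 and 189 CPM in the control over the 5 large classes.

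**Figure D5:**
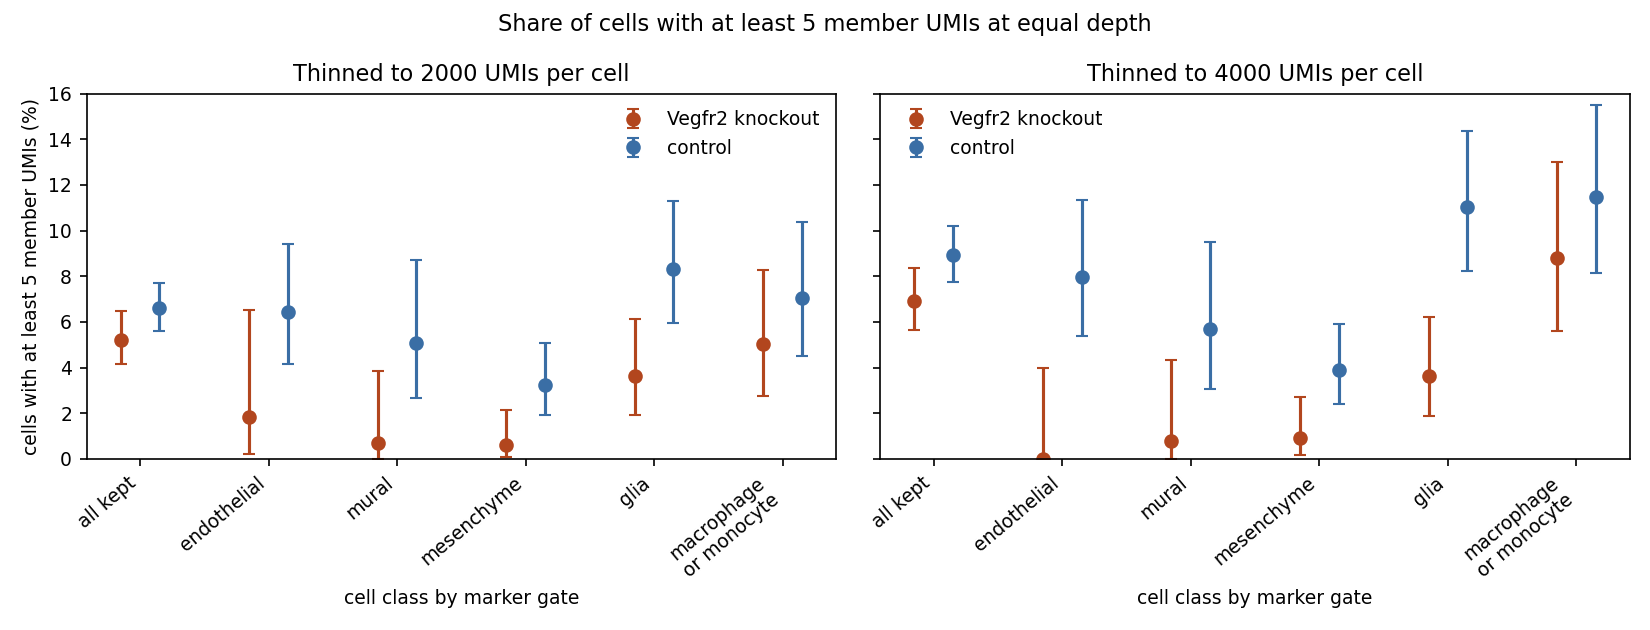
Share of cells with at least 5 UMIs of the 40 genes after thinning to 2000 UMIs (left panel) or 4000 UMIs (right panel) per cell, Vegfr2 knockout left of control in each class, with exact Clopper-Pearson 95% intervals. At 2000 UMIs the glial shares are 3.62% in the knockout and 8.33% in the control, and the endothelial shares 1.85% in the knockout and 6.43% in the control; at 4000 UMIs 0 of 91 knockout and 28 of 351 control endothelial cells have them.

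Genes of other phases of the cycle were read in the same way. The 30 genes of a list for DNA replication and S phase had summed ratios of 0.417, 0.452, 0.715, 0.390 and 0.631 in endothelial, mural, mesenchymal, glial and macrophage or monocyte cells. In glia and in macrophages or monocytes they lay below the mitotic genes (0.638 and 0.864), and in the 3 vessel and stroma classes above them. With equal weight the endothelial order turned, with 0.663 for the replication list and 0.809 for the mitotic genes. By summed UMIs 29 of 30 of the replication genes were at least 1.5-fold lower in glia (9.62% of all genes), with Pcna, the replication clamp, at 30.1 CPM in the knockout and 72.1 CPM in the control, Mcm7 of the replicative helicase at 28.7 CPM in the knockout and 64.4 CPM in the control and Cdc6, which loads that helicase, with 2 UMIs in the knockout and 36 in the control. In endothelial cells 29 of 30 were lower (15.1%), or 19 with equal weight (18%), with Uhrf1, which helps to copy DNA methylation, on 1 UMI in the knockout and 168 in the control and Slbp, which binds histone mRNA, at 55.0 CPM in the knockout and 82.8 CPM in the control. In mesenchyme 24 of 30 were lower by summed UMIs (13.3%), and Slbp was at least 1.5-fold higher, at 195 CPM in the knockout and 122 CPM in the control (ratio 1.60, interval 1.44 to 1.78). With equal weight 10 were lower (12.4%) and 3 higher (11.4%). The difference between the lists was not tested.

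Of 30 further mitosis genes, those at least 1.5-fold lower by summed UMIs numbered 27 of 30 measured in endothelial cells (15.1% of all genes), 22 of 24 in mural cells (11.9% of all genes), 25 of 30 in mesenchyme (13.3% of all genes), 15 of 30 in glia (9.62%) and 8 of 29 in macrophages or monocytes (12.5%), where 4 were higher (9.56%). With equal weight 13 of 30 were lower (18% of all genes) and 2 higher (14.9%) in endothelial cells. In mural cells 22 of 24 were lower (13.8%) and 0 higher (12.7%), and in mesenchyme 12 of 30 lower (12.4%) and 4 higher (11.4%). In glia 12 of 30 were lower (9.6%) and 1 higher (11%). In macrophages or monocytes 12 of 29 were lower (12.2%) and 4 higher (12.3%). A pair of them with many UMIs stood apart in endothelial cells, Hjurp, a histone chaperone of centromeres, at 133 CPM in the knockout and 133 CPM in the control (ratio 0.998, interval 0.827 to 1.20) and Cit, a kinase of the cleavage furrow, at 80.6 CPM in the knockout and 77.8 CPM in the control. In mesenchyme Melk, a kinase of cycling cells, had 1 UMI in the knockout and 81 in the control, and in macrophages or monocytes Cenpa, the histone of centromeres, was at 106 CPM in the knockout and 58.3 CPM in the control (ratio 1.83, interval 1.55 to 2.15). Of the regulators, in endothelial cells E2f8, a repressor of the E2F family, had no UMI in the knockout and 35 in the control, and Mybl2, which activates mitotic promoters, 1 UMI in the knockout and 28 in the control. Rb1, which restrains E2F, was at 78.7 CPM in the knockout and 50.2 CPM in the control (ratio 1.57, interval 1.21 to 2.01). Among G1 genes Ccnd1 was at 187 CPM in the knockout and 326 CPM in the control and Ccnd2 at 254 CPM in the knockout and 176 CPM in the control in endothelial cells. Summed inhibitors of the cycle had ratios of 1.51, 1.66, 1.42, 0.997 and 1.17 in the same 5 classes, but single genes went both ways. In endothelial cells 2 of 12 were at least 1.5-fold lower (15.1% of all genes) and 4 higher (11.9%). In mural cells 1 of 12 was lower (11.9%) and 4 higher (11%), in mesenchyme 3 of 13 (13.3%) and 4 (11.6%). In glia 1 of 13 was lower (9.62%) and 4 higher (9.99%), in macrophages or monocytes 1 of 12 (12.5%) and 2 (9.56%). Farthest below 1 were Cdkn2c in endothelial cells (log2 ratio -1.55) and mesenchyme (-1.56) and Cdkn2a in glia (-2.54). Cdkn1a, which encodes the kinase inhibitor p21, had the highest ratio of the list in endothelial, mural and mesenchymal cells. It was at 255 CPM in the knockout and 34.6 CPM in the control in endothelial cells (ratio 7.37, interval 6.08 to 8.94), at 63.5 CPM in the knockout and 18.5 CPM in the control in mural cells and at 41.5 CPM in the knockout and 11.5 CPM in the control in mesenchyme. Btg2, an antiproliferative gene, was at 690.4 CPM in the knockout and 317 CPM in the control in endothelial cells and at 961 CPM in the knockout and 335 CPM in the control in mural cells. Cdkn1b, which encodes the kinase inhibitor p27, was at 559 CPM in the knockout and 398 CPM in the control in glia (ratio 1.40, interval 1.32 to 1.49).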

How the data were processed

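Single-cell RNA-seq counts were used as deposited: whole-number UMI counts per gene and barcode, made by the authors with Cell Ranger. The version is 6.0.1 for the knockout and 5.0.0 for the control per the file headers, and 6.0.1 on mm10 for both per the submitters' processing notes; the effect of a difference in version was not tested. Barcodes with under 500 genes, under 1000 UMIs or over 10% mitochondrial UMIs were left out, and Scrublet calls (scanpy 1.11.5, 0.823% of cells) were removed per library. The median number of genes per kept cell was 2817 in the Vegfr2 knockout and 3608 in the control. UMIs were summed per class, ratios of CPM were given exact conditional Poisson 95% intervals, and equal weight is the mean of UMIs per 10000 of each cell. The interval script was checked on simulated counts. List medians took genes of 20 UMIs or more in the pair of libraries, those without a UMI at a floor of 3 counts. Genes with full values were those with the most UMIs and the highest and lowest ratios in a class (up to 8, 3 and 3), and of other lists up to 4 a class. Alternatives varied filters, gate, weighting, depth, single cells, sex and denominators. The genes and lists were chosen with earlier results of these data known. Of the genes that the likeness rule reached, 1 is not reported here.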

Additional observations from a re-analysis of the deposited data

Results flagged for a closer look

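The 40 genes were higher in the Vegfr2 knockout in B cells, where the summed ratio of knockout over control was 1.38 (interval 1.25 to 1.53), and in neutrophils, where it was 1.38 (interval 1.16 to 1.65). Both stand out because endothelial cells lie on the other side of 1, at 0.207. The difference between the classes was not tested, and the B cell and neutrophil values rest on under 50 cells per library. By the clusters made without cell cycle genes, 225 of the knockout neutrophil UMIs lay in 4 cells of cluster 6, named macrophage or monocyte. No control neutrophil lay there. Within cluster 17, with 34 knockout and 27 control neutrophils, the ratio was 0.722 (interval 0.579 to 0.899), so no direction is read for neutrophils.

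Barcodes that met the gene and UMI limits but were over the mitochondrial limit enter no comparison above and still held mitotic UMIs. The 614 knockout barcodes had 1596 UMIs of the 40 genes and the 849 control barcodes 2451, or 835 CPM in the knockout and 650.1 CPM in the control, a ratio of 1.28 (interval 1.21 to 1.37). Over kept cells the ratio was 0.656.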

How the results depend on the processing

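The values below moved by more than their counting interval or crossed 1 under another setting; the cause was not tested. Of 96 values of the summed ratio over alternatives and classes, 36 stayed within the interval, 58 moved, and 2 of a class whose ratio was at least 1.5-fold from 1 crossed it. Of 1008 such values of single named genes, 711 stayed, 279 moved, and 18 crossed 1 in the same sense. The summed ratio over all kept cells uses no gate and could not change under another gate or cluster naming. Its values there count among the 36 that stayed. In endothelial cells, mural cells and mesenchyme the summed ratio stayed below 1 under every alternative run. Ratios are Vegfr2 knockout over control, and the list median is the median log2 ratio of the measured genes. Leaving out the top 5 cells and asking for at least 4000 UMIs were added after the data were seen. At a mitochondrial limit of 5% the summed ratio was 0.761 in all kept cells, 0.102 in endothelial cells, 0.350 in mural cells and 1.07 in glia, and the list median was -0.47 in all kept cells, -3.33 in endothelial cells, -1.65 in mural cells and 0.12 in glia. At a limit of 20% the summed ratio was 0.674 in all kept cells, 0.262 in mesenchyme and 0.664 in glia. With a looser gate the summed ratio was 0.326 in endothelial cells, 0.340 in mural cells and 0.933 in macrophages or monocytes, and the list median was -1.83 in endothelial cells, -1.70 in mural cells and -0.16 in macrophages or monocytes. With a stricter gate the summed ratio was 0.353 in mural cells, and the list median was -1.69 in mural cells. With classes named by clusters made without cell cycle genes the summed ratio was 0.362 in mural cells, 0.612 in glia and 1.52 in macrophages or monocytes, the list median was -1.65 in mural cells and 0.55 in macrophages or monocytes, and the ratio crossed 1 for Nuf2 at 1.47, Bub1 at 1.67 and Hmmr at 1.14 in macrophages or monocytes. With equal weight for each cell the summed ratio was 0.770 in all kept cells, 0.809 in endothelial cells, 0.189 in mural cells, 0.520 in mesenchyme, 0.583 in glia and 0.723 in macrophages or monocytes, the list median was -0.41 in all kept cells, -0.33 in endothelial cells, -2.94 in mural cells, -1.17 in mesenchyme and -0.64 in macrophages or monocytes, and the ratio crossed 1 for Prc1 at 1.05, Birc5 at 1.39, Ube2c at 1.10, Cdc20 at 2.14 and Ect2 at 1.51 in endothelial cells. With cells thinned to 2000 UMIs the summed ratio was 0.755 in all kept cells, 0.398 in endothelial cells, 0.217 in mural cells, 0.386 in mesenchyme, 0.609 in glia and 0.803 in macrophages or monocytes, the list median was -0.47 in all kept cells, -1.13 in endothelial cells and -1.27 in mesenchyme, and the ratio crossed 1 for Cks2 at 1.09 and Cdc20 at 1.08 in endothelial cells, Birc5 at 1.11 in mural cells, Cks2 at 1.02 in mesenchyme and Nuf2 at 1.17 in macrophages or monocytes. Thinned to 4000 UMIs the summed ratio was 0.684 in all kept cells, 0.138 in endothelial cells, 0.181 in mural cells, 0.324 in mesenchyme and 0.565 in glia, the list median was -1.71 in endothelial cells, and the ratio crossed 1 for Cdca3 at 1.04 in mural cells and Smc4 at 1.02 in mesenchyme. In cells of at most 30000 UMIs the summed ratio was 0.789 in all kept cells, 0.235 in endothelial cells, 0.415 in mesenchyme, 0.543 in glia and 1.26 in macrophages or monocytes, and the list median was -0.45 in all kept cells, -1.55 in mesenchyme and 0.24 in macrophages or monocytes. Without the top cell of each library and class the summed ratio was 0.624 in all kept cells, 0.125 in mural cells, 0.221 in mesenchyme and 0.524 in glia, and the list median was -3.09 in mural cells and -0.90 in glia. In Xist-positive cells the summed ratio was 0.808 in all kept cells, 0.298 in endothelial cells, 0.0995 in mural cells, 0.229 in mesenchyme, 1.14 in glia and 1.16 in macrophages or monocytes, the list median was -0.31 in all kept cells, -2.0 in endothelial cells, 0.14 in glia and 0.0869 in macrophages or monocytes, and the ratio crossed 1 for Ect2 at 1.06 in endothelial cells and Prc1 at 1.02 in glia. In Y-positive cells the summed ratio was 0.496 in all kept cells, 0.0927 in endothelial cells, 0.149 in mural cells, 0.312 in glia and 0.165 in macrophages or monocytes, the list median was -0.98 in all kept cells, -1.66 in glia and -2.83 in macrophages or monocytes, and the ratio crossed 1 for Cks2 at 1.09 in mural cells. The mural value rested on 55 knockout and 22 control cells, where 2 genes had at least 20 UMIs. That of macrophages or monocytes rested on 69 knockout and 50 control cells, where 17 genes had them. Without mitochondrial, ribosomal protein and haemoglobin UMIs in the totals the summed ratio was 0.614 in glia. Without the top 5 cells the summed ratio was 0.574 in all kept cells, 0.170 in endothelial cells, 0.202 in mural cells, 0.323 in mesenchyme, 0.299 in glia and 0.739 in macrophages or monocytes, and the list median was -0.88 in all kept cells, -2.85 in endothelial cells, -1.91 in mesenchyme, -1.72 in glia and -0.57 in macrophages or monocytes. In cells of at least 4000 UMIs the summed ratio was 0.10 in endothelial cells and 0.172 in mesenchyme, and the list median was -3.69 in endothelial cells. For the share of thinned cells with at least 5 mitotic UMIs, the endothelial ratio was 0 when thinned to 4000 UMIs; with at least 1 such UMI it was 0.978 in mural cells and 1.14 in mesenchyme, where it crossed 1. No paired analysis was possible because there is 1 library per genotype. Depth limits what can be read: the median depth of the libraries has a ratio of 0.678, and undetected doublets, beside the 33 of 4012 cells that Scrublet called (0.823%), may remain in both.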

Other observations

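Barcodes under the gene or UMI limit, 266 in the Vegfr2 knockout and 309 in the control, held 170 UMIs of the 40 genes in the knockout and 244 in the control, a ratio of 0.882 (interval 0.721 to 1.08). Outside the cells with at least 50 mitotic UMIs per 10000, the mean mitotic UMIs per 10000 of a cell were 1.84 in knockout and 2.89 in control endothelial cells, 1.99 in knockout and 1.74 in control mesenchyme, and 1.59 in knockout and 2.55 in control glia. No mitotic UMI at all was found in 44.7% of knockout and 27.8% of control endothelial cells, and in 41.0% of knockout and 23.5% of control glia. These shares move with depth. In 1 draw of 2000 UMIs per cell at least 1 was found in 28.7% of knockout and 31.9% of control endothelial cells (ratio 0.90, interval 0.585 to 1.35). In glia the shares were 24.0% in the knockout and 32.9% in the control (ratio 0.729, interval 0.551 to 0.957). Over 20 further draws the endothelial ratio ran from 0.597 to 0.999, with a median of 0.748 and an interval below 1 in 3 draws. The glial ratio ran from 0.642 to 0.878, with an interval below 1 in 14 of 20 draws.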
